A study of Mus musculus with 8 samples.

Results

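The 8 genes described here belong to the RAF-MEK-ERK cascade and to the negative feedback on it: Braf, Map2k1, Map2k2 and Mapk3, which encode kinases, Dusp1, Dusp2 and Dusp5, which encode phosphatases, and Spry1, which encodes a Sprouty protein. They were chosen by symbol, and all 8 were found among the 57180 genes of the deposited table. The RNA came from FACS-sorted regulatory T (Treg) cells of mice; these Foxp3-expressing CD4 T cells keep other immune cells in check. The 8 libraries fall into 3 labelled chimera KO and 5 labelled chimera WT. The deleted gene, strain, age, tissue, treatment and kind of chimera are not given in the labels, and the mice differed without any library being tied to 1 animal, so the p-values below measure the spread between libraries. By its title, the series is about copper and how well these cells suppress.

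In this cascade, RAS bound to GTP recruits RAF kinases to the membrane, RAF phosphorylates MEK1 and MEK2 (the products of Map2k1 and Map2k2), and these phosphorylate ERK kinases, among them ERK1 (the product of Mapk3). MEK1 and MEK2 bind copper, which raises their kinase activity in mammalian cells, and this is the known link between copper and the pathway. Active ERK in turn induces genes that shut it off, among them dual-specificity phosphatases, which remove phosphate from MAP kinases, and Sprouty proteins, which act on the RAS and RAF steps. In T cells the cascade is switched on by the T cell receptor.

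Values are library-size-normalised counts (CPM) after TMM scaling, called normalised CPM, where TMM is edgeR's factor for differences in library make-up, unless a sentence says otherwise. Log2 changes are chimera KO minus chimera WT, and a call means a Benjamini-Hochberg adjusted p under 0.05 over all 14755 genes tested with edgeR's quasi-likelihood test. Total counts were 4314445 to 8477879 in the KO libraries and 10544754 to 17977089 in the WT libraries. WT replicates 4 and 5 stood apart from the other libraries, with 8250 and 9484 genes at 10 or more counts, against 12491 to 14318 in KO libraries and 12758 to 14090 in WT replicates 1 to 3. In replicate 4 the summed level of 7 NK and CD8 T cell markers was 4140, against 4.49 to 63.2 in KO libraries and 48.4 to 122 in WT replicates 1 to 3. Its 7 B cell markers summed to 3108, against 82.2 to 194 in KO libraries and 201 to 555 in WT replicates 1 to 3. In that library the NK and CD8 T cell sum rested on 3 of the 7 genes, with Ncr1, Klrb1c, Cd8a and Prf1 at 0 counts, while 6 of the 7 B cell markers were detected. In WT replicate 4 the 7 myeloid markers summed to 772, against 4.29 to 47.0 in KO libraries and 2.82 to 145 in WT replicates 1 to 3, with Lyz2, Csf1r and Cd68 at 0. In WT replicate 5 the 5 red cell genes summed to 9102, against 0.449 to 7.16 in KO libraries and 0.581 to 22.2 in WT replicates 1 to 3. Of 8 T cell and Treg markers none was at 0 in any library, and their summed level was 3373, 1483 and 1068 in KO replicates 1 to 3, against 4492, 7167, 5911, 12853 and 6826 in WT replicates 1 to 5. With TMM scaling every KO library thus lay below every WT library in this sum. Taken singly, 1 of the 8 markers did so, where 4.49% of all genes tested did, and the markers' log2 changes ran from −3.46 to −0.091. In bulk samples fewer cells of a type and less RNA per cell cannot be told apart.

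None of the 8 genes was called. All 8 log2 changes lay below 0, their median being −1.52, against a median of −0.42 over all genes tested and −0.86 over protein-coding genes tested. Of all genes tested, 56.8% had negative log2 changes, and of protein-coding genes 66.5%. The calls numbered 0 higher and 0 lower over all genes (0% called in each direction). At an unadjusted p under 0.05, 1 of the 8 genes, Dusp1, was lower in KO libraries, where 6.43% of all genes tested were. DESeq2 called Dusp1 alone among the 8, where it called 5.24% of its genes lower. With TMM factors computed from protein-coding genes alone, the median of all genes moved from −0.42 to 0.00, the median of the 8 genes from −1.52 to −0.998, and the sign of Braf became positive.

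**Figure D1:**
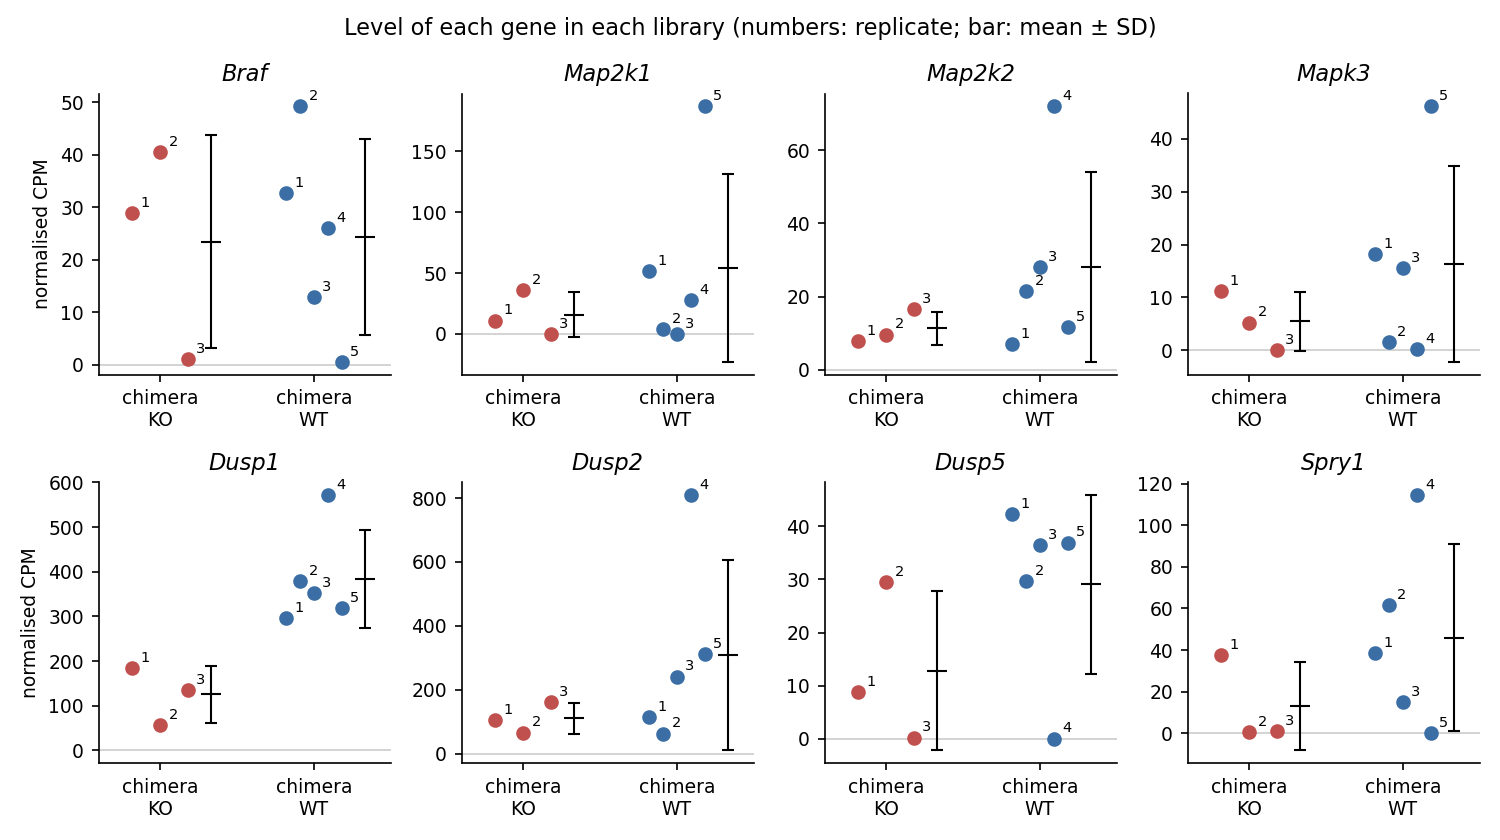
Normalised CPM (y axis) of each of the 8 genes in the 3 chimera KO libraries (red, left) and the 5 chimera WT libraries (blue, right), with the replicate number beside each point and a black bar for mean ± SD. Dusp1 is the gene whose KO points all lie below its WT points, between 57.1 and 184 against 295 to 572, and Map2k1, Mapk3, Dusp5 and Spry1 reach 0 or nearly 0 in single libraries of both groups.

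Braf (ENSMUSG00000002413, chromosome 6, 39603237 to 39725463, minus strand, GRCm38) encodes B-Raf, the RAF kinase with the highest basal activity. It stood at 28.9, 40.5 and 1.07 in KO replicates 1 to 3, against 32.8, 49.3, 12.9, 26.0 and 0.558 in WT replicates 1 to 5. One library of each group, KO replicate 3 and WT replicate 5, was near 0, and the groups overlapped throughout. Its log2 change was −0.048 (SE 1.40, 95% interval −3.19 to 3.09, adjusted p = 0.987 in edgeR), and −0.70 without KO replicate 2. The last exon of Braf overlaps that of Ndufb2, a complex I gene on the other strand with 344 to 2690 counts per library, by 146 bases, and the library kit does not mark strand.

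Araf, which encodes the related kinase A-Raf, stood at 148 ± 49.9 in KO and 192 ± 106 in WT libraries (SD, n = 3 and n = 5). Its lowest value, 4.64, was in WT replicate 4, where the other 4 WT libraries had 209 to 252. In CPM without TMM factors Araf had 200 ± 56.3 in KO and 189 ± 113 in WT libraries.

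Map2k1 (ENSMUSG00000004936, chromosome 9, 64185770 to 64253631, minus strand) encodes MEK1. It was the most variable of the 8 genes, with 124, 242 and 0 counts in KO replicates 1 to 3 and 625, 47, 0, 198 and 1341 counts in WT replicates 1 to 5. In normalised CPM this is 10.8, 36.2 and 0 in KO libraries, against 51.9, 4.08, 0, 27.8 and 187 in WT libraries. A library without a Map2k1 count occurred in both groups; at 0 counts, a level of up to 3 counts is not detectable. Over all 8 libraries its coefficient of variation was 1.57, larger than in 78.2% of the 2150 tested genes within 0.5 log2 CPM of its mean level. The log2 change was −1.79 (SE 2.20, 95% interval −6.70 to 3.12, adjusted p = 0.665 in edgeR), and it was −0.13 without WT replicate 5 and −3.32 without KO replicate 2.

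Map2k2 (ENSMUSG00000035027, chromosome 10, 81105915 to 81133975, plus strand) encodes MEK2 and was detected in every library. It stood at 7.78, 9.57 and 16.5 in KO replicates 1 to 3, against 7.05, 21.5, 28.1, 72.1 and 11.6 in WT replicates 1 to 5. The KO values lay within the range of the WT values, and with TMM scaling the highest value was that of WT replicate 4. In CPM without TMM factors WT replicate 3 was highest, at 29.9, and WT replicate 4 had 28.5. Its log2 change was −1.31 (SE 1.11, 95% interval −3.80 to 1.17, adjusted p = 0.533 in edgeR), and −0.60 without WT replicate 4.

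The balance between the MEK genes, a ratio within each library that no scaling between libraries alters, differed widely among libraries of the same group. Map2k1 made up 57.9, 79.0 and 0% of the summed Map2k1 and Map2k2 level, as length-normalised TPM, in KO replicates 1 to 3, against 87.9, 15.8, 0, 27.6 and 94.1% in WT replicates 1 to 5. The mean share was 45.6 ± 40.9% in KO and 45.1 ± 43.1% in WT libraries (SD, n = 3 and n = 5; exact two-sided permutation p = 1, adjusted p = 1 over 3 such shares computed after the values were seen). In KO replicate 3 and WT replicate 3 all MEK reads were assigned to Map2k2, and in WT replicate 5 nearly all to Map2k1. The transcripts of these genes share few exact stretches: 7 of the 3385 different 50-base words of Map2k1 transcripts also occur in Map2k2. How reads were assigned between the 2 genes was not tested.

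**Figure D2:**
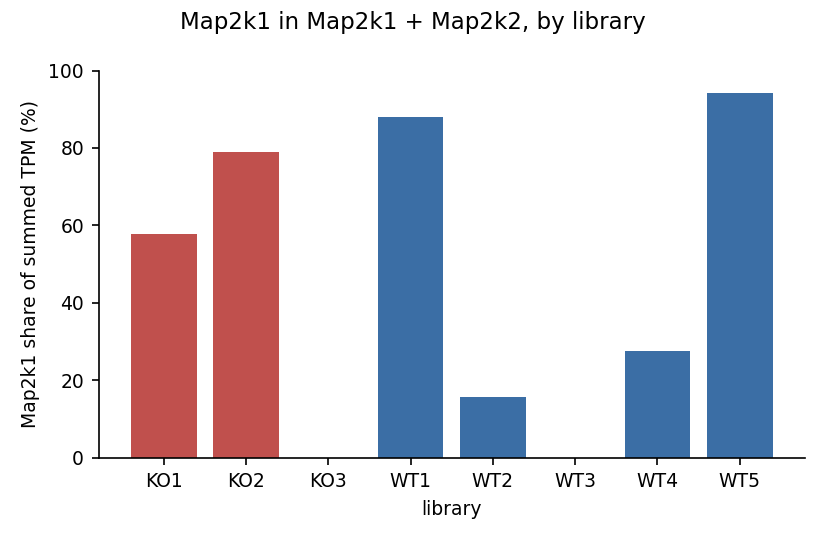
Share (y axis, % of the summed Map2k1 and Map2k2 TPM) of Map2k1 in the 3 KO libraries (red) and then the 5 WT libraries (blue). The share runs from 0 to 79.0% in KO libraries and from 0 to 94.1% in WT libraries.

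Mapk3 (ENSMUSG00000063065, chromosome 7, 126759601 to 126765819, plus strand) encodes ERK1. It stood at 11.2, 5.23 and 0 in KO replicates 1 to 3, against 18.3, 1.56, 15.6, 0.14 and 46.2 in WT replicates 1 to 5. Each group held libraries at or near 0 and libraries with clear signal. The log2 change was −1.57 (SE 1.88, 95% interval −5.78 to 2.64, adjusted p = 0.656 in edgeR), and it was −0.60 without WT replicate 5 and −2.68 without KO replicate 1.

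Transcripts of the feedback phosphatases Dusp1 and Dusp2 were far more abundant than those of the kinase genes among the 8. This did not hold for every kinase gene of the cascade. Araf, outside the 8, had a mean TPM of 140 in KO and 133 in WT libraries. The means were 143 and 250 for Dusp1 and 153 and 176 for Dusp2. Over the 8 libraries the median TPM was 187 for Dusp1, 171 for Dusp2, 19.1 for Dusp5, 15.6 for Spry1, 11.5 for Map2k2, 10.6 for Mapk3, 7.91 for Map2k1 and 4.41 for Braf. Dusp1 and Dusp2 took the first places in all 8 libraries, Dusp1 ahead of Dusp2 in 4 of them, while the order of the other 6 genes changed from library to library. The DUSP1 protein is a nuclear phosphatase that acts on p38, JNK and ERK, DUSP2 is a nuclear phosphatase of activated lymphocytes, and DUSP5 is a nuclear phosphatase specific for ERK.

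The sequences before the start sites are shown for the phosphatase genes, which transcription factors downstream of ERK are known to induce, and for Braf, whose window holds the same element as that of Dusp1. They are from RefSeq on GRCm38.p6, read on the gene's strand, and stop where an annotated exon of the gene begins. Capitals mark the cAMP response element, the CArG box (the site of serum response factor) and the EGR site.
Dusp1, chr17:26508520-26508722, minus strand: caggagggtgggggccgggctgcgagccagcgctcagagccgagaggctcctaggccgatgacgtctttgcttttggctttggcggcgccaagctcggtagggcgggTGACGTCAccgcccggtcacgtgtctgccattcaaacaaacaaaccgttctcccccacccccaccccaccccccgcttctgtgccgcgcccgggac
Dusp2, chr2:127335909-127336158, plus strand: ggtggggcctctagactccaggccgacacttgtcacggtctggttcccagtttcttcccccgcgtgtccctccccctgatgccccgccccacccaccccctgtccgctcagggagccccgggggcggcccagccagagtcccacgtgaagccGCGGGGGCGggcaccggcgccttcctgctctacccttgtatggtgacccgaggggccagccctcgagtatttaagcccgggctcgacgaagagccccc
Dusp5, chr19:53528895-53529108, plus strand: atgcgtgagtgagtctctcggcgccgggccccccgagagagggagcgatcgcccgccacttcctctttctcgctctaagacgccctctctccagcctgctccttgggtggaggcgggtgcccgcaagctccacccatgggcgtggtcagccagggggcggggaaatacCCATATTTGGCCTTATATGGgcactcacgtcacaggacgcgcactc
Braf, chr6:39725464-39725713, minus strand: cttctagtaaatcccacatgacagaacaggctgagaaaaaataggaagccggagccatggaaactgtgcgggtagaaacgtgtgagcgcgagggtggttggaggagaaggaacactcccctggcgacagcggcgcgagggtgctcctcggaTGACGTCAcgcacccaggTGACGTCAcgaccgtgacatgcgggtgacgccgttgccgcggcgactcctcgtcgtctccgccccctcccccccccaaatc

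Windows of 250 bases before the start site were found for 7 of the 8 genes and searched on both strands. The cAMP response element TGACGTCA occurs in the windows of Dusp1, at −143 to −136 from the RefSeq start site, and of Braf, at −99 to −92 and −81 to −74, and in 1.55% of the 32851 promoter windows of this length. The window of Dusp5 holds adjacent CArG boxes at −82 to −73 and −72 to −63, a motif found in 1.47% of windows. The window of Dusp2 holds the EGR site GCGGGGGCG at −98 to −90, which 2.57% of windows hold. The shorter core TGACG, which each full cAMP response element also contains, occurs in the windows of Dusp1, Dusp5, Braf and Map2k1 and in 17.8% of all windows. The ETS site CCGGAA (12.0% of windows) occurs in that of Map2k1, and the AP-1 site TGANTCA (6.75%), the TATA box TATAAA (12.4%) and the NF-kappaB site (3.9%) in none of the 7 windows. These matches describe the letters of the windows and say nothing of binding in these cells.

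Dusp1 (ENSMUSG00000024190, chromosome 17, 26505590 to 26562128, minus strand) is the one gene of the 8 whose groups did not overlap. It stood at 184, 57.1 and 135 in KO replicates 1 to 3, against 295, 379, 352, 572 and 318 in WT replicates 1 to 5. Each KO library lay below each WT library, as was so for 4.49% of all genes tested and 5.43% of protein-coding genes tested. The mean was 125 ± 63.9 in KO and 383 ± 110 in WT libraries (SD, n = 3 and n = 5), a log2 change of −1.61 (SE 0.60, 95% interval −2.95 to −0.28). It was lower in KO libraries at an unadjusted p of 0.0228 but was not called by edgeR (adjusted p = 0.325), while DESeq2 gave an adjusted p of 0.0400. The WT libraries were close to one another for this gene, with a coefficient of variation of 0.288. No 50-base word of its transcripts occurs in another gene's transcripts.

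The separation of Dusp1 depended on scaling. As CPM without TMM factors it stood at 248, 83.6 and 175 in KO replicates 1 to 3, against 336, 410, 375, 227 and 216 in WT replicates 1 to 5, so that KO replicate 1 lay above WT replicates 4 and 5. Per 1000 normalised CPM of T cell and Treg markers, a ratio within each library computed after the values were seen, Dusp1 stood at 54.5, 38.5 and 126 in KO libraries, against 65.8, 53.0, 59.6, 44.5 and 46.6 in WT libraries. The groups overlapped in that ratio, with the highest and the lowest value both in KO libraries. The 8 markers' own log2 changes were all below 0 (median −1.59); the part of T cell RNA in the Dusp1 values was not tested further. Without WT replicates 4 and 5, the log2 change of Dusp1 was −1.45 (SE 0.48).

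**Figure D3:**
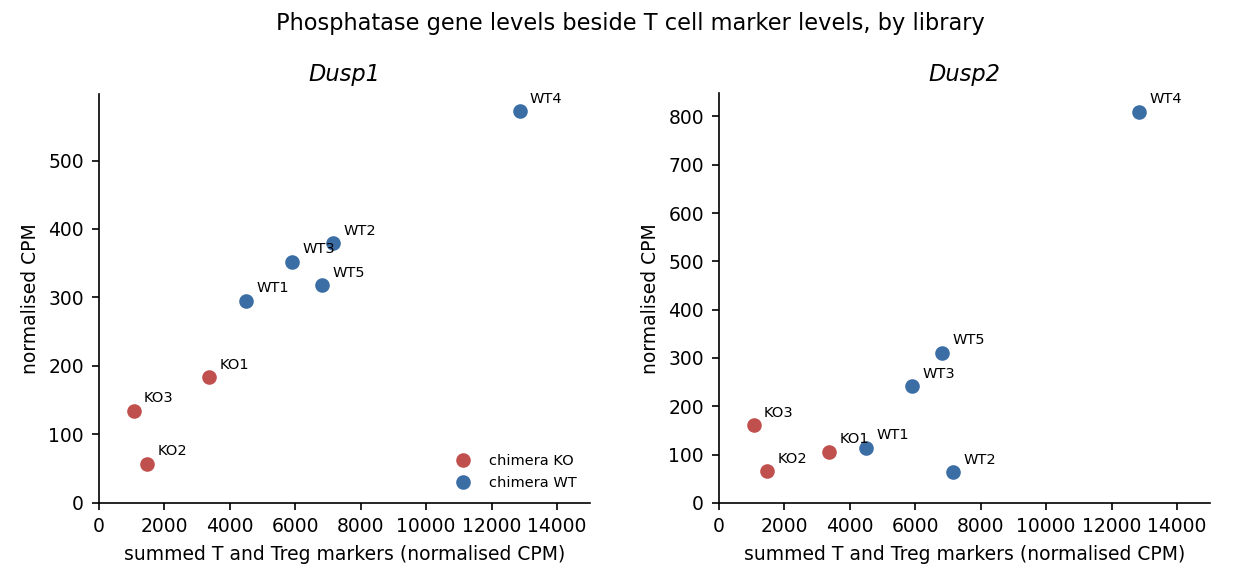
Normalised CPM of Dusp1 and of Dusp2 (y axes) against the summed normalised CPM of 8 T cell and Treg markers (x axes), 1 point per library, KO red and WT blue. The KO libraries, at 1068 to 3373 on the x axis, hold the lowest Dusp1 values, and WT replicate 4, at 12853, the highest value of both genes. Both axes are scaled by the same TMM factor in each library. In CPM without TMM factors Dusp1 was 227 in WT replicate 4, below KO replicate 1 at 248. Dusp2 was then 321 in WT replicate 4, against 257 in WT replicate 3.

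Dusp2 (ENSMUSG00000027368, chromosome 2, 127336159 to 127338376, plus strand) stood at 106, 65.6 and 161 in KO replicates 1 to 3, against 114, 63.0, 241, 810 and 311 in WT replicates 1 to 5. With TMM scaling WT replicates 1 and 2 lay within or below the range of the KO libraries, and WT replicate 4 far above the rest. In CPM without TMM factors WT replicate 4, at 321, was nearer to WT replicate 3, at 257. The KO libraries then had 143, 96.1 and 208. The log2 change was −1.47 (SE 0.88, 95% interval −3.43 to 0.49, adjusted p = 0.407 in edgeR), and −0.72 without WT replicate 4. With both WT replicates 4 and 5 left out it was −0.32 (SE 0.63).

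Dusp5 (ENSMUSG00000034765, chromosome 19, 53529109 to 53542431, plus strand) stood at 8.83, 29.5 and 0.179 in KO replicates 1 to 3, against 42.3, 29.7, 36.5, 0 and 37.0 in WT replicates 1 to 5. With TMM scaling all WT libraries but replicate 4, which had no count, lay above all KO libraries, WT replicate 2 only just. In CPM without TMM factors KO replicate 2, at 43.0, lay above WT replicates 2, 3 and 5, at 32.2, 38.8 and 25.1. For this gene the log2 change was −1.18 (SE 1.80, 95% interval −5.20 to 2.83, adjusted p = 0.728 in edgeR), and −2.69 without KO replicate 2. An antisense gene, AC137853.2, with 120, 14 and 0 counts in KO and 42, 69, 118, 0 and 125 in WT libraries, overlaps the first exon, and 20.5% of the 50-base words of the Dusp5 transcript occur in it on the other strand, so part of these reads is uncertain.

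Spry1 (ENSMUSG00000037211, chromosome 3, 37639947 to 37644598, plus strand) encodes Sprouty1, which restrains RAS-ERK signalling after the T cell receptor is engaged. It was present or nearly absent by library, at 37.6, 0.449 and 0.895 in KO replicates 1 to 3, against 38.6, 61.7, 15.0, 115 and 0 in WT replicates 1 to 5. KO replicates 2 and 3 and WT replicate 5 held 3, 5 and 0 counts, while the other libraries held 179 to 817. The log2 change was −1.82 (SE 2.004, 95% interval −6.30 to 2.66, adjusted p = 0.628 in edgeR), and it was −6.15 without KO replicate 1, the KO library in which the gene was detected clearly, and −1.15 without WT replicate 4. A gene on the other strand, Gm42922, shares 21.8% of the 50-base words of Spry1 and held at most 6 counts in a library.

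**Figure D4:**
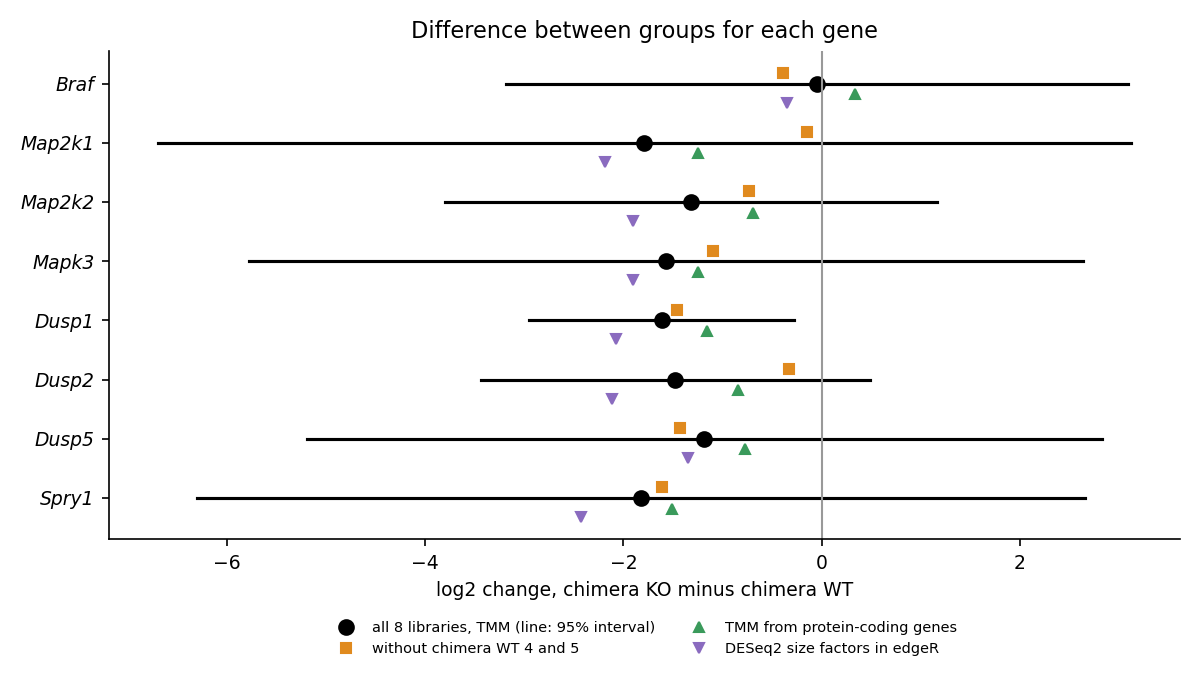
Log2 change (x axis, chimera KO minus chimera WT) of each of the 8 genes with all libraries and TMM factors (black points, with 95% intervals as lines), without WT replicates 4 and 5 (squares), with TMM factors from protein-coding genes (upward triangles) and with DESeq2 size factors in edgeR (downward triangles). The interval of Dusp1, −2.95 to −0.28, is the one that does not cross 0, and Braf is the gene whose points fall on both sides of it.

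Absence from single libraries was common among genes of this level. Map2k1, Mapk3, Dusp5 and Spry1 each had 2 libraries with at most 3 counts. Among tested genes within 0.5 log2 CPM of their mean levels, 20.6, 42.0, 33.1 and 24.5% had as many or more such libraries. Between pairs of the 8 genes, the Pearson correlation of log2 CPM over the libraries ran from −0.59, for Map2k2 and Dusp5, to 0.86, for Mapk3 and Dusp5. It was 0.71 for Braf and Spry1, 0.69 for Map2k2 and Dusp2, 0.60 for Dusp1 and Dusp2, and −0.29 for Map2k1 and Map2k2. The values rest on 8 libraries, of which WT replicates 4 and 5 stand apart, and are descriptions only. Among 8102 other genes, those most like Dusp1 were Zmynd11 and Naa12 (r = 0.99 for each), and those most like Dusp2 were Park7 (r = 0.98) and Ndufa3 (r = 0.97). Dusp5 was most like Ciao2a (0.99) and Poglut1 (0.98), Mapk3 like Mars1 (0.99) and Itpr2 (0.98), and Spry1 like Alkbh6 (0.98) and Zfp715 (0.98). Braf was most like Chkb (0.98) and Tpra1 (0.97), Map2k1 like Mfhas1 (0.96) and Arhgap27 (0.93), and Map2k2 like Zfp62 (0.97) and Dnajc17 (0.94). Dnajc17 was at 0 in every KO library and in WT replicates 1 and 5, against 2.86, 9.50 and 156 in WT replicates 2 to 4.

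Around the 8 genes, 106 other genes of the pathway were listed by role, of which 79 passed the count filter. By edgeR 0 of the 79 were called higher or lower in KO libraries. At an unadjusted p under 0.05, 2 were higher, where 7.96% of all genes tested were, and 8 were lower, where 6.43% were. DESeq2 called 2 higher (3.84% of its genes) and 8 lower (5.24%). Of the 79, 61 had log2 changes below 0. The median of the 79 was −1.05, and −0.72 without WT replicates 4 and 5. In the fit without these libraries the median was −0.15 over all genes tested and −0.48 over protein-coding genes tested. In 7, among them Lat, Rasa1, Ywhaz and Dusp7, every KO library lay below every WT library (4.49% of all genes tested), and in 4, among them Dusp3 and Slc31a1, every KO library lay above every WT library (13.2%). In CPM without TMM factors 4 of the 7, Lat, Lamtor2, Ywhaz and Dusp7, still lay below (1.66% of all genes tested), and all 4 of the others above (18.9%).

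Upstream of RAF, 9 of 12 tested RAS and exchange factor genes had log2 changes below 0 (median −0.97). Lat, the adaptor that couples the T cell receptor to RAS, stood at 196, 96.7 and 123 in KO libraries, against 384, 400, 386, 1607 and 736 in WT libraries (log2 change −2.34, SE 0.705, adjusted p = 0.325 in edgeR and 0.0254 in DESeq2), with no overlap. Rasgrp1, the main RAS exchange factor of T cells, had 191 ± 199 in KO and 323 ± 176 in WT libraries. Among 7 tested RAS GTPase-activating proteins, which switch RAS off, 5 were negative (median −0.89). Rasa1 was the clearest, at 260, 76.3 and 80.0 in KO libraries, against 383, 585, 541, 522 and 625 in WT libraries (log2 change −1.94, SE 0.615, adjusted p = 0.325 in edgeR and 0.0161 in DESeq2), and −2.83 without KO replicate 1. In CPM without TMM factors its groups overlapped, with 351 in KO replicate 1 and 207 in WT replicate 4. Rasal3 had 115 ± 48.3 in KO and 203 ± 133 in WT libraries, but 157 ± 65.6 and 158 ± 97.4 in CPM without TMM factors.

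Of 5 other tested RAF, MEK and ERK kinase genes 4 were negative (median −1.20). Map3k8, which encodes the MEK kinase TPL2, stood at 42.7, 2.54 and 1.43 in KO libraries, against 161, 187, 31.5, 227 and 49.1 in WT libraries (adjusted p = 0.343 in edgeR), overlapping in KO replicate 1 and WT replicate 3. Of 11 tested scaffold and cofactor genes 10 were negative (median −1.51, and −0.63 without WT replicates 4 and 5). Lamtor2, a part of the complex that holds MEK1 and ERK at late endosomes, had 30.1 ± 10.9 in KO and 118 ± 65.9 in WT libraries (adjusted p = 0.325 in edgeR and 0.0291 in DESeq2). Ywhaz, a 14-3-3 protein that binds RAF, had 89.8 ± 24.4 in KO and 705 ± 886 in WT libraries (adjusted p = 0.325 in edgeR and 0.0277 in DESeq2), with 2275 in WT replicate 4. The chaperone gene Hsp90ab1 had 164 ± 6.53 in KO and 330 ± 158 in WT libraries. In CPM without TMM factors Hsp90ab1 had 225 ± 22.8 in KO and 247 ± 13.3 in WT libraries.

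The other dual-specificity phosphatase genes lay on both sides of 0. Of 6 tested, 4 were negative, and their median was −0.11, or −0.66 without WT replicates 4 and 5 and 0.25 with TMM factors from protein-coding genes. Dusp3, which encodes the small ERK and JNK phosphatase VHR, had every KO library above every WT library, at 32.6, 25.6 and 29.4 in KO libraries against 7.14, 8.50, 9.67, 1.55 and 3.21 in WT libraries (log2 change 2.28, SE 0.98, adjusted p = 0.337 in edgeR and 0.0246 in DESeq2), as had 13.2% of all genes tested. Dusp7, a cytoplasmic ERK phosphatase, had every KO library below every WT library, at 4.90, 2.09 and 5.37 in KO libraries against 47.1, 7.89, 29.5, 49.4 and 28.0 in WT libraries (log2 change −2.97, SE 1.13, adjusted p = 0.325 in edgeR and 0.00371 in DESeq2). Dusp6, the cytoplasmic ERK phosphatase that is a common readout of the pathway, stood at 13.2, 0 and 7.88 in KO libraries, against 56.7, 92.7, 13.9, 0 and 119 in WT libraries, each group holding a library without a count (adjusted p = 0.474 in edgeR). Of 3 tested Sprouty and SPRED genes, Spred1 had 10.6 ± 10.9 in KO and 16.6 ± 15.1 in WT libraries, and Spred2 19.2 ± 18.1 in KO and 4.88 ± 4.55 in WT libraries.

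Downstream of ERK, 11 of 12 tested genes that the pathway induces had negative log2 changes (median −1.35, and −1.61 without WT replicates 4 and 5). Fos, an AP-1 subunit, stood at 65.9, 67.1 and 85.2 in KO libraries, against 665, 547, 202, 145 and 67.1 in WT libraries (log2 change −2.16, SE 0.85, adjusted p = 0.325 in edgeR and 0.0372 in DESeq2). With TMM scaling WT replicate 5 lay within the KO range and the other 4 WT libraries above it. In CPM without TMM factors WT replicates 4 and 5, at 57.3 and 45.6, lay below the KO libraries, at 88.9 to 110. Egr3, a zinc finger factor induced by the T cell receptor, stood at 0.262, 0.449 and 0.179 in KO libraries, against 7.14, 25.6, 108, 0 and 74.5 in WT libraries (adjusted p = 0.325 in edgeR and 0.000998 in DESeq2). At these levels every KO library held at most 3 counts, and so did WT replicate 4. Ier5 had 74.1 ± 22.0 in KO and 326 ± 467 in WT libraries, with 1160 in WT replicate 4. Among 11 tested kinases and factors that ERK phosphorylates, 7 were negative (median −0.65), with Ets1 at 510 ± 169 in KO and 910 ± 310 in WT libraries and Elk4 at 121 ± 56.9 in KO and 229 ± 150 in WT libraries. These gaps depended on scaling. In CPM without TMM factors Ets1 had 700 ± 235 in KO and 754 ± 274 in WT libraries. Elk4 then had 167 ± 78.1 in KO and 164 ± 70.4 in WT libraries.

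Of 4 tested copper transport genes 3 were negative (median of the 4 −1.99, and −0.10 without WT replicates 4 and 5). Slc31a1, which encodes the copper importer CTR1, was positive, at 45.9, 16.6 and 24.2 in KO libraries, against 0.66, 0.61, 0.08, 0 and 3.91 in WT libraries (log2 change 4.77, SE 1.56, adjusted p = 0.325 in edgeR and 0.0320 in DESeq2), and its log2 change was 6.40 without WT replicate 5. Ccs, the chaperone reported to deliver copper to MEK1, stood at 15.5, 13.0 and 8.05 in KO libraries, against 26.6, 5.46, 7.06, 179 and 29.3 in WT libraries, and Atox1 had 71.9 ± 21.9 in KO and 282 ± 306 in WT libraries. In the parallel p38 and JNK modules 7 of 8 genes were negative (median −1.11). Mapk14 had 27.6 ± 25.2 in KO and 62.2 ± 61.5 in WT libraries, and Map2k3 55.5 ± 1.66 in KO and 43.1 ± 46.9 in WT libraries. For Map2k3, WT replicate 4 had 126, WT replicates 1 to 3 had 11.1 to 31.5 and WT replicate 5 had 24.1. In CPM without TMM factors every KO library, at 70.7 to 79.7, lay above every WT library, at 12.0 to 49.9. This was so for 18.9% of all genes tested.

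**Figure D5:**
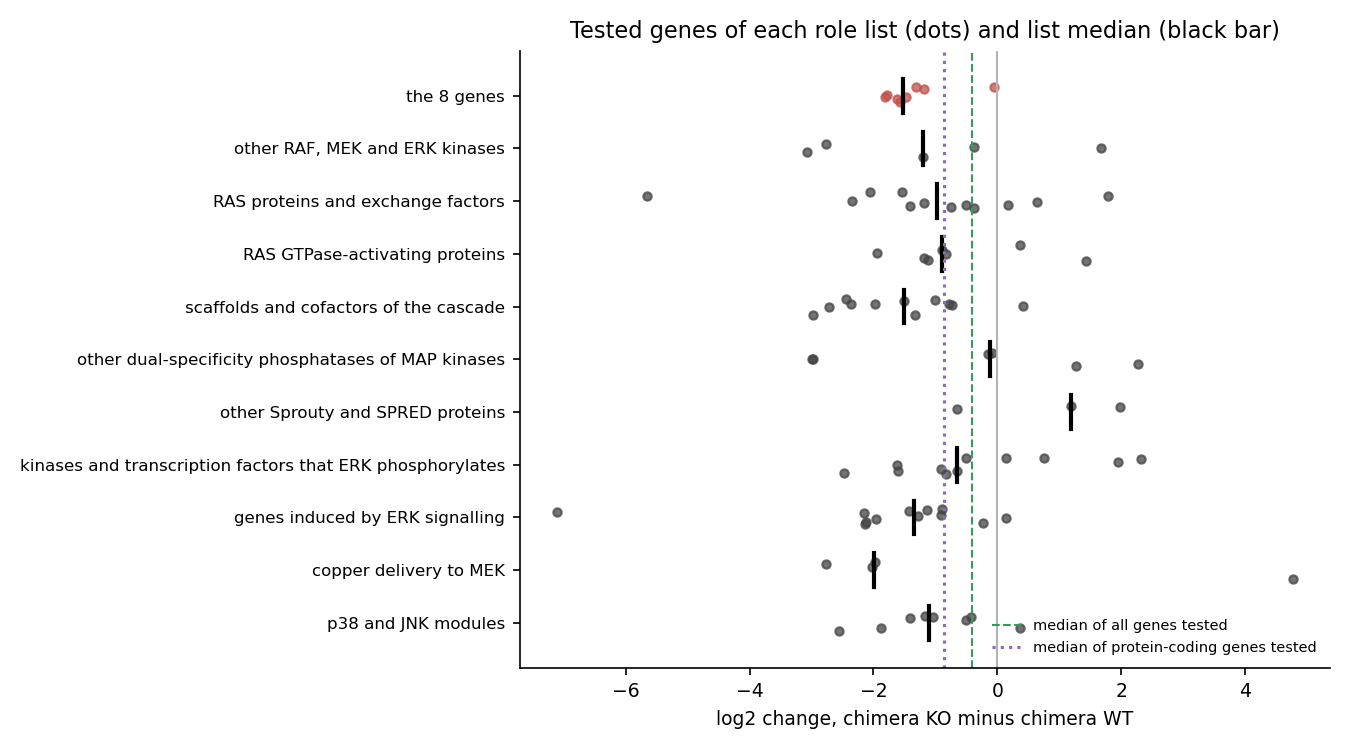
Log2 change (x axis, chimera KO minus chimera WT) of each tested gene, 1 dot per gene, for the 8 genes (red) and the other role lists of the pathway (grey), with a black bar at each list's median and lines at the median of all genes (−0.42) and of protein-coding genes (−0.86). The other phosphatases and the Sprouty and SPRED genes have medians to the right of both lines with all libraries, at −0.11 and 1.19, and the 8 genes a median of −1.52 to the left of them.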

How the data were processed

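SMART-Seq v4 libraries (a low-input, full-length kit, unstranded) were made from sorted mouse Treg RNA, per the labels' protocols. The authors deposited expected counts, which are estimates and often not whole numbers; the submitters' processing notes list fastp, HISAT2, StringTie, RSEM, DESeq2 and mm10, without versions or roles, and which annotation was used is not stated there. The authors' group means were not used. Sample titles gave groups and replicate numbers.

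Rounded expected counts of all 8 libraries were filtered with filterByExpr (minimum count 10), scaled by TMM and compared, chimera KO minus chimera WT, by the two-sided quasi-likelihood test of edgeR 4.0.16 (R 4.3.3) with no covariates. Each SE is the size of the log2 change divided by the root of F. TMM factors were 1.36, 1.49 and 1.32 in KO replicates 1 to 3 and 1.15, 1.09, 1.08, 0.400 and 0.689 in WT replicates 1 to 5. TPM used the table's gene lengths. Alternatives were DESeq2 1.42.0, its size factors in edgeR, voom with quality weights in limma 3.58.1, TMM from protein-coding genes (GENCODE annotation of GRCm38), no filter, a replicate block and leaving out libraries. The edgeR step alone was run on simulated counts with known changes. Its pass limits applied to a lower spread between libraries than that of the 8 genes. They therefore do not show how many changes would be found here. The 95% intervals come from the edgeR fit and include the spread between libraries; the floor of 3 counts covers counting error only, since reads carry no molecular identifiers. No libraries of a group agreed within sampling noise, so none was counted as a duplicate (lowest chi-square per degree of freedom 58.3).

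The 8 genes and all lists were chosen with earlier results of these data known. Named are the 8 genes, the 2 pathway genes of highest mean CPM per list, list genes with an unadjusted p under 0.05, and for each of the 8 the 2 most correlated annotated genes (mean log2 CPM 3 or more). Of 149 list symbols 148 were found. Some pathway and marker genes are not reported here by name. Figures were drawn with matplotlib 3.10.9.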

Additional observations from a re-analysis of the deposited data

Results flagged for a closer look

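In 9 of 33 genes, 1 of the 5 WT libraries stood off from its nearest neighbour by more than 0.710 of the whole range. This limit is passed in about 1 in 20 groups of normally distributed values. The genes share their libraries, and many were named for a high mean CPM over them, so the 9 cannot be set against that rate. Among the 8 genes it was Map2k1, at 187 normalised CPM in WT replicate 5. In the wider pathway WT replicate 4 was the highest for Lat (1607), Ywhaz (2275), Ier5 (1160), Ccs (179) and Map2k3 (126), and the lowest for Araf (4.64) and Rasgrp1 (16.6). For Slc31a1, WT replicate 5 was the highest WT library, at 3.91. Markers of B cells and of NK and CD8 T cells were also highest in WT replicate 4 and red cell genes in WT replicate 5; their part in these values was not tested.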

How the results depend on the processing

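Over 16 alternative fits, the log2 changes of Map2k2, Mapk3, Dusp1, Dusp2, Dusp5 and Spry1 stayed negative. Map2k1 turned positive with limma-voom (0.16) and with the replicate block (0.42). Braf turned positive with TMM factors from protein-coding genes (0.33) and without WT replicates 2 and 3, the 2 libraries named FY (0.57), and ranged from −0.70 to 0.49 when single libraries were left out. In none of the 8 genes did an alternative give an adjusted p under 0.05, except Dusp1 in DESeq2 (log2 change −2.10, adjusted p = 0.0400); its adjusted p ranged from 0.0400 to 0.727 over the alternatives. Over all genes, edgeR called 0 higher and 0 lower, DESeq2 587 and 802, and limma-voom 18 and 4; 1 was higher with no filter, and 1 with TMM factors from protein-coding genes. Of the other pathway genes DESeq2 called 2 higher and 9 lower when those that edgeR's filter removes are counted. Among named pathway genes, Araf turned positive with protein-coding TMM factors (0.062), Elk4 (0.019) and Ccs (0.24) with the replicate block, and Map2k3 negative with DESeq2's size factors (−0.28) and in DESeq2 (−0.31). Over all alternatives the log2 change of Map2k3 ran from −0.31 to 1.49. Ranked by CPM without length, Spry1 took place 3, Dusp5 place 4, Braf 5, Map2k2 6 and Mapk3 8. The causes were not tested. Egr3 gave no value without WT replicates 2 and 3. The replicate block used replicates 1 to 3 of both groups. The correlations of same-numbered libraries' deviations were 0.059, 0.0095 and 0.035, and 2 of 3 KO libraries correlated best with their own number. With so few libraries this cannot show whether equal numbers mark a shared animal or batch, and the labels do not say. The block gave 0 calls. Genes near 0 are limited by the depth of the KO libraries (down to 4314445 counts) and by the few genes detected in WT replicates 4 and 5 (8250 and 9484 with 10 or more counts); their parts were not tested.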
